A study of Mus musculus with 6 samples.

Results

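Heat shock chaperones are proteins that hold, fold and refold other proteins. The 10 genes described here were chosen by symbol from the deposited table and were Hspa1a, Hspa1b, Hsph1, Dnajb1, Hspb1, Hsp90aa1, Hspa8, Hspe1, Hspd1 and Cryab. All 10 of the 10 were present and had been measured, out of 53332 gene symbols with a measured level. RNA came from cardiac mesenchymal cells, stromal cells grown out of the heart, of which the slowly adherent fraction had been kept. Every sample title also carries the mark P4, which the titles do not spell out. The hearts were from male C57BL6/J mice by the labels, taken 28 days after surgery. In the sham group (3 libraries) the chest had been opened without an infarct, and in the infarct group (3 libraries) the heart had undergone 60 min of coronary occlusion and then reperfusion. The labels describe the cells of the infarct group as isolated from failing heart. Nothing in the labels ties the libraries to different animals or cultures. The p-values therefore describe spread between these samples only, and that spread may be technical.

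In the heat shock response, unfolded protein draws HSP70 and HSP90 away from heat shock factor 1, which then binds repeats of GAA and TTC in the promoters of inducible chaperone genes. HSP40 proteins hand a client to HSP70 and start its ATPase cycle, HSP110 proteins exchange its nucleotide, and HSP90 takes over later steps of folding. Small heat shock proteins hold unfolded chains without ATP, and in mitochondria HSP60 and HSP10 form a folding chamber. In heart tissue the small heat shock proteins are best known from muscle, where they protect the sarcomere.

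The values are FPKM, in which fragment numbers are divided by the length of the transcript and the size of the library, so levels can be compared between genes. Each library had 12543 to 12699 genes at 1 FPKM or more. Low values of genes with 1 annotated transcript of 2 to 12 kb lay on steps that implied 22.6 to 31.3 M fragments per library. Of these values above 1.5 fragments, 96.9% to 98.0% came within 0.1 of a whole fragment, and an even spread would give 20%. The libraries did not match the sex given in the labels. The X-inactivation RNA Xist was at 63.1 to 110.9 FPKM in all 6, and 4 Y-linked genes (Ddx3y, Kdm5d, Eif2s3y and Uty) summed to 0.307 to 0.410 FPKM in sham libraries and to 25.6, 2.36 and 6.21 in infarct libraries 1 to 3. All 10 stromal markers reached the filter of the test. Of 14 cardiomyocyte markers 1 did, Tnnt2, and Myh6, Myl7, Nppa and Ckm were listed at 0 in every library. The summed level of 10 endothelial markers was 87.8 to 386 FPKM in sham and 3.59 to 24.0 in infarct libraries. All 8 of these markers that were tested had lower, separate values in the infarct group (1 called by limma). A marker can pass the filter through its sham libraries alone, so this count partly follows from the filter. Pecam1, for example, was at 10.5 to 56.3 FPKM in sham and 0.15 to 2.52 in infarct libraries. Over all genes tested 4.10% had lower, separate values and 0.00786% were called lower. The part of the endothelial difference in the results below was not tested. In bulk RNA fewer cells of a type and less RNA per cell cannot be told apart.

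Promoter sequences from RefSeq (GRCm38.p6, 250 bases before to 50 after each start) were matched for 7 of the 10 genes, and stretches with the repeats that heat shock factor 1 is known to read are shown. The short repeat GAANNTTC, which reads the same on both strands, was found for 6 of the 7 genes. Some genes have a pair of starts, and by window it was in 7 of 10 windows, beside 7.86% of all 32851 promoter windows of this length. A longer repeat of 3 units (GAA, TTC and GAA, with 2 bases of any kind between units), searched on both strands and always containing the short one, was found for 3 of the 7 (Hspd1, Hspe1 and Hsph1), in 4 of 10 windows, beside 0.603% of all windows. Both windows of Dnajb1 and the first window of Hspd1 held neither as an exact match. Repeats that differ from these letters or lie outside the windows were not searched. Windows with a repeat are not all separate sites, so their counts beside the shares of all windows are descriptions only. Both windows of Hsph1 overlap and hold the same repeat, and the Hspe1 window and the second Hspd1 window share theirs. In Hspa1a and Hspa1b the short repeat began 104 bases before the start, and 247 of the 250 upstream bases (98.8%) were the same in both genes. Capitals mark GAANNTTC, and each line is on the strand of its gene.
Hspa1a, chr17:34972197-34972276, minus strand: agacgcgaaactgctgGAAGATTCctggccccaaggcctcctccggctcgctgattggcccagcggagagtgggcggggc
Hspa1b, chr17:34959279-34959358, minus strand: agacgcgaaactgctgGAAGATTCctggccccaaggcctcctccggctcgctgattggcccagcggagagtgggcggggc
Hspb1, chr5:135887789-135887868, plus strand: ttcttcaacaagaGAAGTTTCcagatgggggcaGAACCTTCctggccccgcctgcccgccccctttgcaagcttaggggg

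Hspd1 and Hspe1 are transcribed away from each other, and the Hspe1 start and the second of 2 RefSeq starts of Hspd1 lie 216 bases apart. A pair of overlapping long repeats lies between them, 127 bases from that Hspd1 start and 72 bases from the Hspe1 start. This is the repeat that both genes share, with capitals on the letters that match the 3 units on either strand.
Hspd1 and Hspe1, chr1:55088053-55088082, plus strand: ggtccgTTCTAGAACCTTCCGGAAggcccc

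None of the 10 chaperone genes passed the test between the groups. With limma on log2(FPKM + 1), adjusted over all 12720 genes tested, 0 of the 10 genes were called in either direction, where 0.0236% of all genes were (0.00786% lower and 0.0157% higher in infarct libraries). At an unadjusted p under 0.05 there were also 0 of 10, against 3.58% of all genes tested. In the authors' deposited table none (0 of the 10) had a q under 0.05, where 1.66% of the 14922 genes with status OK did, and the smallest of their p-values was 0.302, for Hspd1. Sham and infarct libraries overlapped for all 10 genes, and 7.81% of all genes tested had groups that did not. Of the 10 log2 changes, infarct minus sham, 5 were negative and 5 positive, with a median of -0.01 beside 0.02 for all genes tested. They ran from -0.18 for Hspa1a to 0.22 for Hspd1. With 0.01 FPKM added before the log in place of 1, these were -0.26 and 0.23. The summed level of the 10 genes had a mean of 1500.3 FPKM (± 67.7) over the sham libraries and of 1494 (± 70.4) over the infarct libraries. Here and below ± is the SD, with n = 3 a group.

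**Figure D1:**
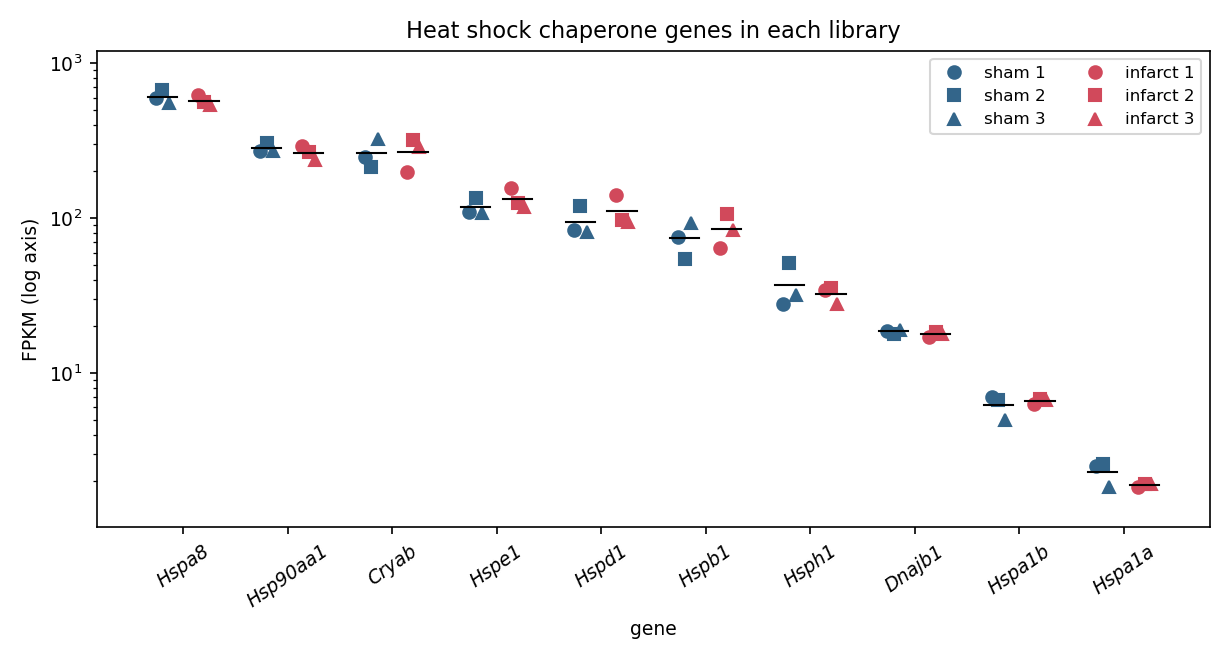
FPKM of the 10 chaperone genes in each library on a log axis, sham in blue and infarct in red, with bars at the group means and genes ordered by mean level. The levels ran from 667 FPKM for Hspa8 to 1.83 for Hspa1a, and the groups overlapped for every gene.

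Levels of the 10 genes spanned a wide range that was kept in all libraries. Over the 6 libraries, Hspa8 was the most abundant at a mean of 589 FPKM, 39.3% of the sum of the 10, and 104 of the genes tested had a higher mean. Hsp90aa1 (274 FPKM) and Cryab (265) followed and were not ordered, since each was above the other in 3 of 6 libraries. Below them stood Hspe1 (125.5), Hspd1 (103) and Hspb1 (79.6). Hspe1 was above Hspd1 in 6 of 6 libraries, whereas Hspd1 was above Hspb1 in 4 of 6. Hsph1 (34.8), Dnajb1 (18.2), Hspa1b (6.44) and Hspa1a (2.10) formed the low end, and from Hspb1 downwards the ranges of neighbours did not overlap. The stress-inducible HSP70 genes were the lowest of the 10 and their constitutive relative the highest.

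Positions are from GENCODE M21 on GRCm38. Hspa8 (chromosome 9, 40800984 to 40810087, plus strand) encodes the constitutive cytosolic HSP70, HSC70. In the order of libraries 1, 2 and 3, which is kept below, Hspa8 stood at 595, 667 and 552 FPKM in sham and at 622, 559 and 537 in infarct libraries. The highest values were in sham library 2 and infarct library 1, and the groups overlapped. Its log2 change was -0.08 with an SE of 0.11 and a 95% interval of -0.34 to 0.18 by limma (adjusted p = 1.00, as for all 10 genes). Without sham library 2 the change was -0.0037, without sham library 3 and without infarct library 1 it was -0.14, and without infarct library 3 it was -0.03. The gene also holds 3 small nucleolar RNA genes of the Snord14 family in its introns, which the table lists at 0.

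Hspa1a (chromosome 17, 34969190 to 34972156) and Hspa1b (chromosome 17, 34956436 to 34959238) encode the inducible HSP70 and lie side by side in the major histocompatibility region. Hspa1a was at 2.51, 2.58 and 1.83 FPKM in sham libraries and at 1.85, 1.93 and 1.92 in infarct libraries. Hspa1b was at 7.02, 6.75 and 4.97 FPKM in sham libraries and at 6.30, 6.83 and 6.74 in infarct libraries. Sham library 3 held the lowest value of both genes, below every infarct library. Sham libraries 1 and 2 were above all infarct libraries for Hspa1a, and for Hspa1b sham library 1 was, while sham library 2 was below infarct library 2. The log2 change was -0.18 for Hspa1a (SE 0.14, interval -0.51 to 0.15) and 0.09 for Hspa1b (SE 0.14, interval -0.24 to 0.41). Without sham library 3 the change of Hspa1a was -0.29 (limma adjusted p = 1.00) and its groups no longer overlapped, as for 16.0% of all genes tested there, and that of Hspa1b turned to -0.05.

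These copies are nearly the same sequence. Their coding sequences are the same at 1918 of 1929 aligned positions (99.4%), and 38.1% of the 150-base windows of the Hspa1a transcript, the read length, occur unchanged in Hspa1b, while none occurs in Hspa8. Taken alone, reads in those windows cannot be told apart, so the split between the 2 genes is uncertain. Fragments were sequenced from both ends, and the share of whole fragments that cannot be told apart was not computed. Their sum was 9.52, 9.33 and 6.80 FPKM in sham libraries and 8.16, 8.75 and 8.66 in infarct libraries, with a log2 change of 0.01 (SE 0.14, limma adjusted p = 1.00). The sum came to 1.23% to 1.6% of Hspa8 in sham and 1.31% to 1.61% in infarct libraries. The neighbouring gene Hspa1l, which is known mainly from testis, did not exceed 0.163 FPKM.

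The groups did not overlap in the ratio of Hspa1a to Hspa1b, although they did in both genes and in the sum. The ratio was 0.357, 0.382 and 0.368 in sham libraries and 0.294, 0.282 and 0.285 in infarct libraries, a mean of 0.369 ± 0.0127 against 0.287 ± 0.00615. It was the only 1 of 6 ratios examined that did so, and it was not tested, because the ratios were fixed as descriptions. Of all genes tested, 7.81% had groups that did not overlap, and such a share over ratios of other gene pairs was not computed. The values correspond to 117 to 183 fragments of Hspa1a and 390 to 450 of Hspa1b per library, all within 0.207 of a whole number. Of the fragments of both genes, Hspa1a held 27.5%, 28.9% and 28.2% in sham libraries and 23.8%, 23.1% and 23.3% in infarct libraries. The exact 95% binomial intervals, which cover counting error only, reached down to 24.0% in sham and up to 27.6% in infarct libraries. Intervals of single libraries thus overlapped between the groups. They do not measure the difference between the groups, which was not tested. The Y-linked genes and the endothelial markers also separated the groups, and their part in this ratio was not tested.

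**Figure D2:**
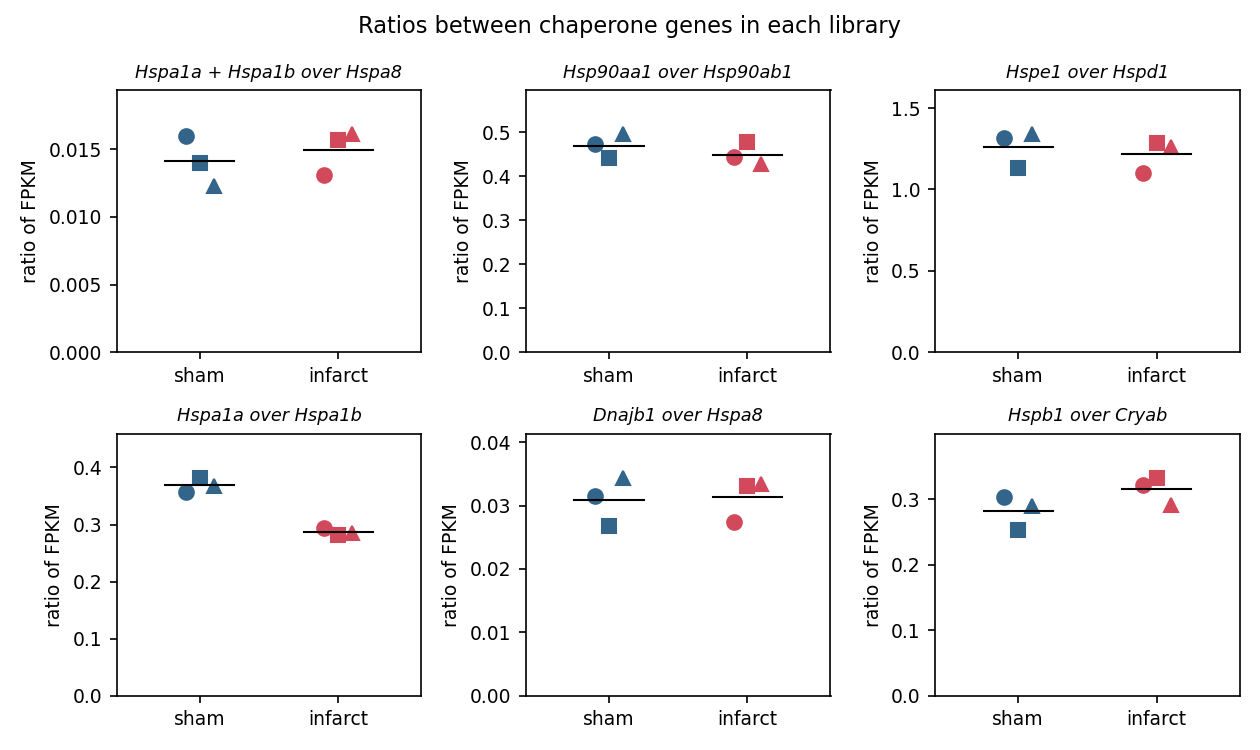
Ratios of FPKM between chaperone genes in each library (circle, square and triangle for libraries 1, 2 and 3), with bars at the group means and axes that start at 0. Hspa1a over Hspa1b lay at 0.357 to 0.382 in sham and 0.282 to 0.294 in infarct libraries, and the other 5 ratios overlapped.

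Hsph1 (chromosome 5, 149614287 to 149636376) encodes HSP110, the exchange factor that resets HSP70. Hsph1 stood at 27.8, 51.7 and 31.8 FPKM in sham libraries and at 34.3, 35.4 and 28.0 in infarct libraries. Sham library 2 stood above all others, and the remaining 5 libraries lay within 27.8 to 35.4 FPKM. The log2 change was -0.14 (SE 0.23, interval -0.68 to 0.41), and without sham library 2 it turned to 0.12 (limma adjusted p = 0.978).

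Dnajb1 (chromosome 8, 83608193 to 83612653) encodes the inducible HSP40 that delivers clients to HSP70. Dnajb1 was at 18.8, 17.9 and 19.0 FPKM in sham libraries and at 17.0, 18.5 and 18.0 in infarct libraries. It was the steadiest of the 10 genes, with a residual SD of 0.05 on the log2 scale, and 2.71% of all genes tested had a smaller one. Its change of -0.05 (SE 0.08) had the narrowest interval, -0.26 to 0.15. With single libraries left out it was -0.080 to -0.024, the end nearest 0 without infarct library 1. Relative to Hspa8 it stood at 2.68% to 3.44% in sham and 2.74% to 3.34% in infarct libraries.

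Hsp90aa1 (chromosome 12, 110690605 to 110702728) encodes the inducible cytosolic HSP90, whose constitutive partner is Hsp90ab1. Hsp90aa1 was at 271, 304 and 273 FPKM in sham libraries and at 291, 268 and 236 in infarct libraries, with a change of -0.10 (SE 0.11, interval -0.35 to 0.16). Without infarct library 1 the change was -0.17 (limma adjusted p = 1.00) and the groups no longer overlapped, as for 18.9% of all genes tested there. It was -0.04 without sham library 2 and -0.015 without infarct library 3. Hsp90aa1 stood below Hsp90ab1 in 6 of 6 libraries, at a ratio of 0.469 ± 0.0275 in sham and 0.449 ± 0.0261 in infarct libraries.

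**Figure D3:**
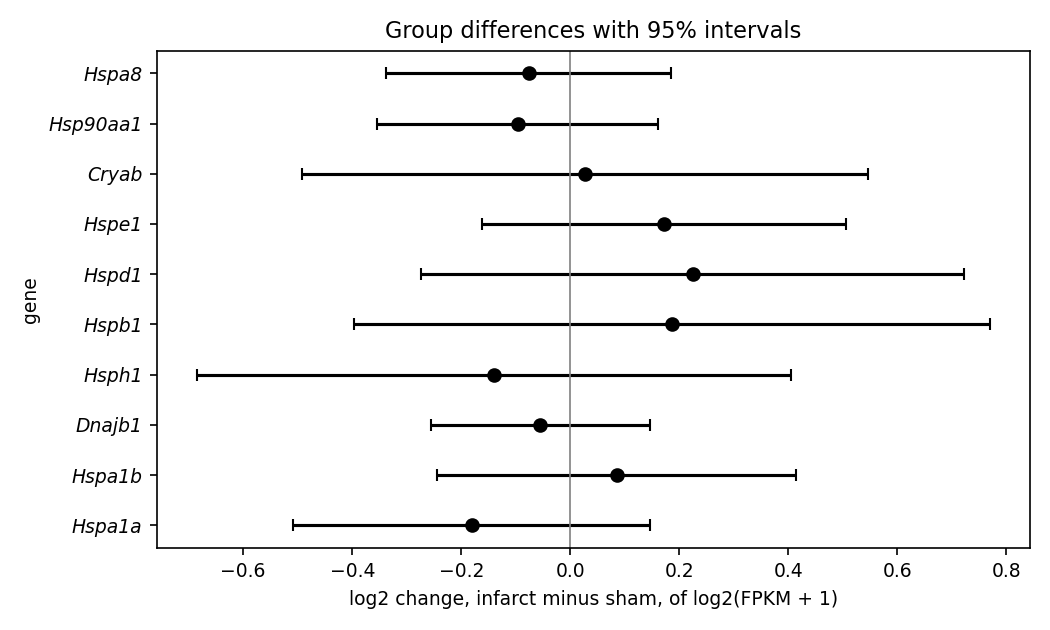
Log2 change of each gene, infarct minus sham on log2(FPKM + 1), with its 95% interval from limma, genes ordered by mean level. Every interval includes 0, from the narrowest of Dnajb1 (-0.26 to 0.15) to the widest of Hspb1 (-0.40 to 0.77).

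The mitochondrial chaperonin genes were high in the same libraries, and Hspd1 had the largest positive change of the 10. Hspd1 (chromosome 1, 55077835 to 55088243) encodes HSP60 and Hspe1 (chromosome 1, 55088132 to 55091307) its lid, HSP10. Hspd1 was at 83.3, 119 and 81.1 FPKM in sham libraries and at 141, 97.5 and 93.8 in infarct libraries. Hspe1 was at 110, 135 and 109 FPKM in sham libraries and at 156, 125 and 118 in infarct libraries. Sham library 2 and infarct library 1 were the highest of their groups for both genes, and apart from sham library 2 every infarct library lay above every sham library. The changes were 0.22 for Hspd1 (SE 0.21, interval -0.27 to 0.72) and 0.17 for Hspe1 (SE 0.14, interval -0.16 to 0.51). Without sham library 2 they were 0.40 and 0.27, with a limma adjusted p of 0.977 for each. Their groups no longer overlapped, as was so for 20.5% of all genes tested without that library. Without infarct library 1 they were 0.04 and 0.05 (limma adjusted p = 1.00). The ratio of Hspe1 to Hspd1 was lowest in those same libraries, at 1.13 in sham library 2 and 1.10 in infarct library 1, and 1.26 to 1.34 in the other 4. The annotated ends of the 2 genes overlap and the table gives both the same merged locus, so reads in the overlap are uncertain.

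Sham library 2 and infarct library 1 also stood out in proliferation genes, which were looked at after the values were seen. Top2a, the topoisomerase gene of dividing cells, was at 33.0, 55.7 and 23.0 FPKM in sham libraries and at 82.7, 29.9 and 37.4 in infarct libraries. Mki67, the gene of the Ki-67 antigen, was at 25.2, 49.2 and 15.1 and at 43.6, 19.2 and 24.7. Both genes were highest in sham library 2 and infarct library 1 within their groups. Their part in the chaperone levels was not tested.

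Hspb1 and Cryab, which encode small heat shock proteins, were lowest within each group in the library where Hspd1 and Hspe1 were highest. The full order of libraries was reversed in the sham group but not in the infarct group. Hspb1 (chromosome 5, 135887919 to 135889563) encodes HSP27 and Cryab (chromosome 9, 50751325 to 50756636) alpha B-crystallin, which form mixed oligomers. Hspb1 was at 75.4, 54.3 and 93.7 FPKM in sham libraries and at 63.8, 106 and 84.2 in infarct libraries. Cryab was at 248, 215 and 322 FPKM in sham libraries and at 198, 318 and 289 in infarct libraries. Sham library 2 and infarct library 1 held the lowest values of both genes within their groups, and sham library 3 and infarct library 2 the highest. The changes were 0.19 for Hspb1 (SE 0.25, interval -0.40 to 0.77) and 0.03 for Cryab (SE 0.22, interval -0.49 to 0.55). Without sham library 2 the signs turned, to -0.02 and -0.11, and without infarct library 1 the changes were 0.37 and 0.23. Without infarct library 2 they were 0.01 and -0.11, and without sham library 3 they were 0.37 and 0.19. Hspb1 stood at 0.282 ± 0.0264 of Cryab in sham and 0.316 ± 0.0218 in infarct libraries.

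Cryab is abundant in heart muscle, and its level here of 198 to 322 FPKM stood beside low levels of most cardiomyocyte markers. Tnnt2, the gene of cardiac troponin T, was at 21.3, 16.7 and 53.2 FPKM in sham libraries and at 14.3, 15.1 and 20.4 in infarct libraries, and the summed level of the 14 cardiomyocyte markers was 17.8 to 54.1 FPKM in sham and 15.2 to 21.04 in infarct libraries. The summed level of 8 smooth muscle and pericyte markers, of which 7 were tested, was 544 to 841 FPKM in the sham group and 579 to 903 in the infarct group. The part of these transcripts in the level of Cryab was not tested. Cryab was highest in sham library 3, as Tnnt2 was, and almost as high in infarct library 2, where Tnnt2 was at 15.1 FPKM. The locus listed for Cryab also covers Hspb2, which the annotation overlaps with it, so reads in the overlap are uncertain.

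Within groups, then, the 10 genes did not follow 1 profile. Sham library 2 was the highest sham library for 6 genes (Hspa1a, Hsph1, Hsp90aa1, Hspa8, Hspe1 and Hspd1) and the lowest for 3 (Dnajb1, Hspb1 and Cryab). Infarct library 1 was the highest of its group for 4 (Hsp90aa1, Hspa8, Hspe1 and Hspd1) and the lowest for 5 (Hspa1a, Hspa1b, Dnajb1, Hspb1 and Cryab). Infarct library 2 was the highest for the other 6 genes. The residual SD was 0.32 to 0.38 on the log2 scale for Hspd1, Cryab, Hsph1 and Hspb1 and 0.05 to 0.19 for the other 6, beside a median of 0.17 over all genes tested.

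**Figure D4:**
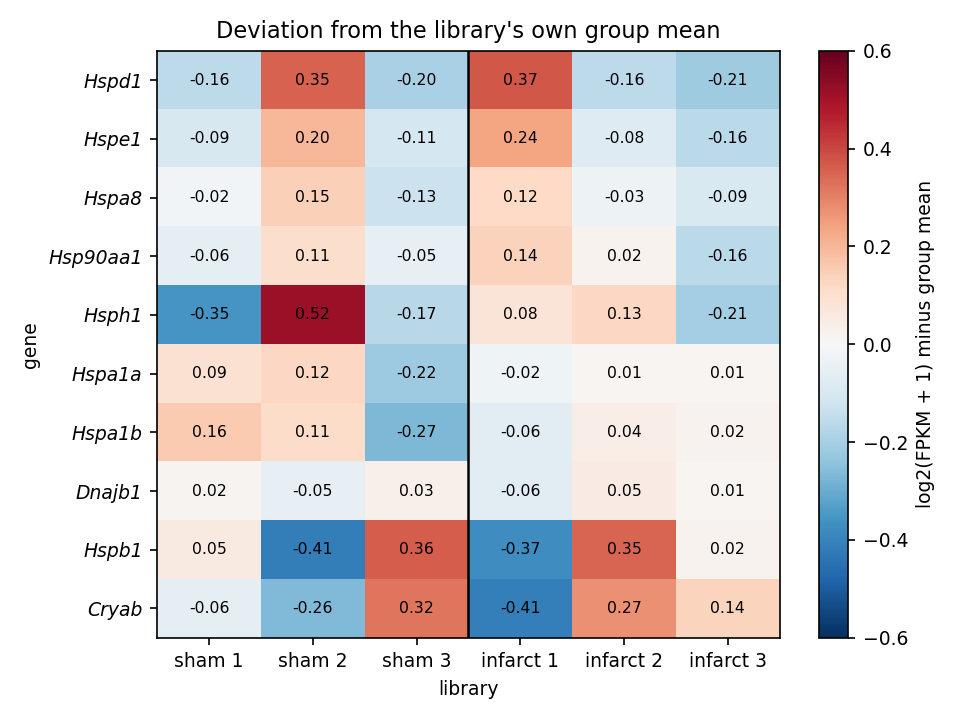
Deviation of each library from its own group mean on the log2(FPKM + 1) scale for the 10 chaperone genes, red above and blue below, with sham left and infarct right of the line. Hspd1 was 0.35 above the mean in sham library 2 and 0.37 above it in infarct library 1, where Hspb1 was 0.41 and 0.37 below.

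Of the 10 genes, 5 that are known for strong induction by heat were averaged (Hspa1a, Hspa1b, Hsph1, Dnajb1 and Hspb1), a choice that leaves out Hsp90aa1 and other members that heat also induces. Their mean profile was nearly flat, at -0.10 to 0.11 around its own mean on the log2 scale. The 5 genes outside the 10 with the most similar profile over the 6 libraries were Tm2d2, Tmed9, Mapk9, Ppt2 and Tbcb, with a root mean square difference of 0.0166 to 0.0258, beside a median of 0.174 over 12710 genes. With so flat a profile, steady genes come close to it. The genes that make up the mean differed from it by 0.0673 for Dnajb1 to 0.316 for Hspb1.

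Among other genes of the chaperone machinery none was called either. Of 122 genes in 9 lists (heat shock factors, further HSP70, HSP90, HSP40 and small heat shock proteins, co-chaperones, chaperonin and prefoldin, mitochondrial chaperones and proteases, and other heat-inducible genes), 113 were tested. By limma 0 were called, against 0.0236% of all genes. An unadjusted p under 0.05 was found for 2, both lower, where 3.58% of all genes tested had one in either direction. Groups did not overlap for 3 lower and 4 higher genes, beside 4.10% and 3.71% of all genes tested. The median change was 0.01, within a range of -0.54 to 0.33.

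Among the regulators, Hsf1, the master factor of the response, had a sham level of 16.2 ± 1.62 FPKM and an infarct level of 17.9 ± 0.515. Pairs of values below give sham first. Hsf2, a second heat shock factor, was at 9.16 ± 0.477 and 9.59 ± 0.641, and Hsbp1, whose product binds heat shock factor 1, at 93.6 ± 11.7 and 97.6 ± 9.60. The 4 genes tested from the list of heat shock factors, which includes Hsbp1, had changes of 0.06 to 0.14. Among 16 inducible genes outside the 10, 9 had negative and 7 positive changes, with a median of -0.02. Groups did not overlap for 1 lower gene (Dnajb4, given below) and 1 higher gene (Ier5l), beside 4.10% and 3.71% of all genes tested. Ier5l was at 17.5 ± 3.61 and 21.9 ± 1.02. Serpinh1, the collagen chaperone HSP47 and the most abundant of the 16, was at 756 ± 46.0 and 826 ± 135. None of these genes passed the test.

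The further small heat shock protein genes all had negative changes, 5 of 5 tested, with a median of -0.19, and none was called. Among all genes tested, 44.7% of the changes were negative and 0.0236% of genes were called. Hspb7, a cardiac and vascular family member, was at 16.9, 16.6 and 13.5 FPKM in sham libraries and at 9.97, 8.32 and 14.5 in infarct libraries, a change of -0.51 (SE 0.20, limma adjusted p = 1.00, unadjusted p = 0.0382). Infarct library 3 overlapped the sham libraries. Hspb2, the muscle family member next to Cryab, was at 15.1, 11.5 and 17.1 FPKM and at 9.38, 11.8 and 11.4, a change of -0.38 (SE 0.16). Hspb8, which works with the co-chaperone Bag3, was at 36.9 ± 2.61 and 35.3 ± 6.57. Cryaa, Hspb3 and Hspb9 were listed at 0 in every library.

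Of the 12 mitochondrial chaperone and protease genes, 4 had groups that did not overlap, 2 in each direction, and none was called. Over all genes tested 4.10% were separate and lower, 3.71% separate and higher, and 0.0236% called. Hspa9, the mitochondrial HSP70, was at 80.6, 89.2 and 92.7 FPKM in sham libraries and at 104, 95.7 and 103.5 in infarct libraries, a change of 0.21 (SE 0.09, limma adjusted p = 1.00). Trap1, the mitochondrial HSP90, was at 19.3 ± 0.670 and 20.8 ± 1.58. Hscb, the HSP70 co-chaperone of iron-sulfur cluster assembly, was at 7.31, 7.72 and 11.5 FPKM in sham and at 4.76, 6.35 and 5.89 in infarct libraries without overlap, a change of -0.54 (SE 0.19, limma adjusted p = 1.00, unadjusted p = 0.0224).

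In the cytosol and endoplasmic reticulum, Hsp90ab1 was at 605 ± 74.8 and 590 ± 58.3 FPKM, Hsp90b1, the endoplasmic HSP90, at 433 ± 27.9 and 446 ± 23.9, and Hspa5, the endoplasmic HSP70 BiP, at 378 ± 30.7 and 379 ± 29.3. Hspa4, an HSP110 relative, was at 68.3 ± 9.32 and 63.6 ± 4.65. Among the 32 HSP40 genes tested, Dnaja3, which acts in mitochondria, was at 13.0 ± 0.423 and 14.9 ± 1.22 and Dnajb4 at 44.5 ± 1.84 and 39.9 ± 3.14, each without overlap of the groups, as for 7.81% of all genes tested. Dnajc10, an endoplasmic reductase and the most abundant of them, was at 79.2 ± 4.25 and 71.7 ± 6.88. The groups overlapped for all 28 co-chaperone genes, against the same 7.81% of all genes that did not overlap. Among them were Ppp5c, a phosphatase bound to HSP90, at 15.8 ± 1.15 and 17.7 ± 1.21, Sugt1 at 49.2 ± 4.795 and 45.9 ± 1.91, and Ptges3, the HSP90 co-chaperone p23, at 94.3 ± 7.96 and 98.0 ± 11.9. The chaperonin subunit gene Cct2 was at 133 ± 13.1 and 139 ± 16.4, and the prefoldin genes Pfdn4 and Pfdn6 had sham levels of 18.5 ± 3.03 and 29.3 ± 1.63 against infarct levels of 21.6 ± 0.845 and 32.6 ± 4.89.

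Immediate early genes, which respond quickly to stimuli and handling of cells, had 10 negative changes of 11, with a median of -0.29, and 0 were called by limma, with 4 at an unadjusted p under 0.05. Over all genes tested 44.7% of the changes were negative, 0.0236% of genes were called and 3.58% had such a p. Their summed level was 506 to 531 FPKM in sham and 401 to 467 in infarct libraries, without overlap, whereas the summed chaperone level was 1439 to 1573 and 1413 to 1537. The difference between the 2 lists was not tested.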

How the data were processed

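Total RNA was depleted of ribosomal RNA and sequenced from both ends, per the labels' protocols. Build GRCm38 and the tools Cuffdiff, StringTie, Cufflinks, HISAT2, SAMtools and Trimmomatic 0.36 are listed by the submitters' processing notes, without roles. For the strand setting and the annotation version, nothing is stated in those sources. Per the file headers, the deposited values are FPKM of each library, and the authors added a p-value and a q-value for each gene. Infarct columns could be tied to their group but not to single samples, and carry the numbers of the columns. Entries of 110 symbols were summed, and 14 entries with too many fragments to estimate (HIDATA) were left out.

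The groups were compared by limma 3.58.1 in R 4.3.3, two-sided, on log2(FPKM + 1), with the prior variance following intensity. Genes entered when 3 of the 6 libraries reached 1 FPKM, and Benjamini-Hochberg adjusted p-values under 0.05 were called. This scale understates changes of low genes. The scripts were tested on simulated data. The closing section gives 17 alternatives to this fit, 1 of them chosen after seeing the data. Depth was inferred with an insert of 275 nt, within the 250 to 300 nt of the labels. Gene positions and transcripts were from GENCODE M21 (GRCm38), promoters from RefSeq. From each chaperone list the 2 genes with the smallest p and the most abundant were named, and of the genes with the most similar profile 1 is not reported here. Protein sequences were not used here. The members and lists were chosen with earlier results of these data known. Python 3.11.15, pandas 2.3.3, numpy 2.4.6, Biopython 1.88 and matplotlib 3.10.9 were used.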

Additional observations from a re-analysis of the deposited data

How the results depend on the processing

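None of the 10 chaperone genes was called in any of 17 alternatives to the test in which it was fitted, and the smallest adjusted p was 0.937. Hspa1a was fitted in 15 and Hspa1b in 16, since both were merged in 1 alternative and Hspa1a missed a filter of 5 FPKM. It belonged to Hspd1 without sham library 2 and infarct library 1 together, an alternative chosen after seeing the data. There 1 chaperone gene, Hspd1, had an unadjusted p under 0.05 by limma (0.0298), 4 had separate groups of 2 libraries each (33.6% of all genes did), and 0 genes over all were called. With single libraries left out, 0 to 3 chaperone genes had separate groups (14.1% to 20.5% of all genes did, the 3 and the 20.5% without sham library 2) and 1 to 14 genes over all were called, 14 of them without sham library 1. With no filter 1 gene was called over all. With FPKM rescaled over named coding and long RNA genes 0 were called, and 1 chaperone gene, Dnajb1, had separate groups (7.64% of all genes did). The median change of the 10 genes stayed between -0.07 and 0.09, and the authors' deposited test also called 0 of them.

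Of 167 values for the 10 genes, 9 changed sign. Leaving out single libraries gave -0.049 to 0.16 for Hspa1b, -0.32 to 0.12 for Hsph1, -0.020 to 0.37 for Hspb1 and -0.11 to 0.23 for Cryab. The other members kept their sign, with -0.29 to -0.12 for Hspa1a, -0.080 to -0.024 for Dnajb1, -0.17 to -0.015 for Hsp90aa1, -0.14 to -0.0037 for Hspa8, 0.054 to 0.27 for Hspe1 and 0.038 to 0.40 for Hspd1. It also gave -0.043 to 0.14 for Hsbp1, -0.18 to 0.0088 for Hspa4, -0.064 to 0.068 for Hspa5, -0.11 to 0.065 for Hsp90ab1, -0.18 to 0.081 for Hspb8, -0.042 to 0.12 for Ptges3 and -0.031 to 0.14 for Cct2. Without sham library 2 and infarct library 1 together, Hsph1 was at 0.080 and Hspb8 at 0.029. Cryab was at -0.0084 with quantile normalization, and Hspa5 at -0.012 with median scaling, -0.030 with quantile normalization and -0.0091 with rescaled FPKM. The cause was not tested. No paired analysis was possible because the infarct columns carry no sample numbers, and the labels state no pairs between the groups. With 3 libraries a group, the 95% intervals were narrowest for Dnajb1 (-0.26 to 0.15) and widest for Hspb1 (-0.40 to 0.77).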
